A study of Mus musculus with 4 samples.

Results

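Enterocytes with the highest levels of the endocytic complex genes Dab2, Cubn and Amn were described in the ileum of the neonatal mouse. They were chosen by a rule from the single-cell counts. In each ileal library, enterocytes were ranked by the percentage of their UMIs (unique molecular identifiers, one per captured RNA molecule) that came from the 3 genes together. The highest 10% were taken as endocytic-complex-high cells and the lowest 10% as the cells to compare them with. This gave 659 cells in mouse 1 and 760 in mouse 2, or 1419 of 14187 ileal enterocytes, 18662 called ileal cells and 36202 called cells in the series. The series sampled the medial jejunum and ileum of 2 wild-type (WT) mice at P6, with 1 library per region and mouse. Mouse 1 was labelled male and batch 1, and mouse 2 female and batch 2, so labelled sex, batch and mouse cannot be told apart. Both regions of a mouse carry the same mouse number in the labels, but the deposited files of mouse 1 carry a number that differs from its label, so the files were taken as deposited for each sample. Epithelium was shaken off with EDTA and dissociated with dispase before capture by PIPseq, a templated emulsification method.

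Enterocytes of the suckling ileum take up intact milk proteins and break them down in large lysosomes. Cubn encodes cubilin, a large peripheral receptor for many protein ligands, Amn encodes amnionless, which anchors cubilin in the apical membrane, and Dab2 encodes a clathrin adaptor that links such receptors to the endocytic machinery. Megalin, encoded by Lrp2, is the transmembrane receptor that works with cubilin in the kidney proximal tubule and the visceral yolk sac. After uptake, cargo passes through early endosomes to lysosomes for hydrolysis, or returns to a cell surface by recycling or transcytosis.

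Kept cells had 1000 to 6000 detected genes, at least 2000 UMIs, a mitochondrial share under 20%, at least 3 of 6 enterocyte markers (Fabp1, Fabp2, Apoa1, Apoa4, Alpi and Lct) and fewer than 2 of 5 cell cycle markers. They were 73.5% and 78.3% of the called ileal cells of mouse 1 and mouse 2. The 2 ileal libraries held 131400239 and 125067265 UMIs, and no kept barcode was shared between libraries. By Xist and the Y-linked gene Eif2s3y, both mice went against their labelled sex. Xist was at 566 CPM (the gene's UMIs scaled to the summed UMIs of its class) in the high cells of mouse 1, labelled male, and at 0.858 CPM in those of mouse 2, and Eif2s3y was at 0.158 and 88.4 CPM. The mouse is therefore named by its number below. The ileal identity of the libraries was checked with Fabp6, an ileal gene, which had a UMI in 16.5% and 29.1% of the high and 34.1% and 41.8% of the low ileal cells, and in 0% and 0.200% of the high and 0.517% and 0.200% of the low jejunal cells chosen by the same rule. Median UMIs of those cells differed between classes, as given below.

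The upstream sequences of the 3 genes that chose the cells and of Lrp2, the gene with the largest rise among transcripts of at least 50 CPM, are shown first, since these transcripts were measured together. Each spans 250 bases before to 50 after a RefSeq transcription start in GRCm38.p6 and reads 5′ to 3′ on the gene's strand, with capitals at the letters CAAAG on either strand.
Dab2, first start (chr15:6299539-6299838, plus strand): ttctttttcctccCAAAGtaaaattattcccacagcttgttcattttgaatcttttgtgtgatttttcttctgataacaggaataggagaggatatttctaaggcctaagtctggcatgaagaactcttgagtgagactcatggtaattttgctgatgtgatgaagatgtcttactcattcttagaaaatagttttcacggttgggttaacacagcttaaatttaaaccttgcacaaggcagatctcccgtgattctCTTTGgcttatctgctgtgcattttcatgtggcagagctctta
Dab2, second start (chr15:6386498-6386797, plus strand): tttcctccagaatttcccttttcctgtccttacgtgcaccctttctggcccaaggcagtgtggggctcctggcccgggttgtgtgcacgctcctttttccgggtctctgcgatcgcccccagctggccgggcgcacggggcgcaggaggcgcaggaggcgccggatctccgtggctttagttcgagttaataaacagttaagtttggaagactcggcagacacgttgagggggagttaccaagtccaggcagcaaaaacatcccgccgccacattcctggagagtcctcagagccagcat
Cubn (chr2:13491827-13492126, minus strand): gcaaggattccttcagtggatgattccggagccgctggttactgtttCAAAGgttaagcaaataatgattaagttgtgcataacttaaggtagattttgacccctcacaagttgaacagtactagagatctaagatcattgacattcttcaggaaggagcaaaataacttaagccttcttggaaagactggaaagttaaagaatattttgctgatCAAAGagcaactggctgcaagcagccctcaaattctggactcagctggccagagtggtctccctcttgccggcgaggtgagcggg
Amn (chr12:111270846-111271145, plus strand): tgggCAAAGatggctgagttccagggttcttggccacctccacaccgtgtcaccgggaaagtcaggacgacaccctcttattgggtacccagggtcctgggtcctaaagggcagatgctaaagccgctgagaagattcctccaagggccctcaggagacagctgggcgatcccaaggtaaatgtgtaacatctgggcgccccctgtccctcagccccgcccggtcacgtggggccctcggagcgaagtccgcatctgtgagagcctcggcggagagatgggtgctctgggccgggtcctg
Lrp2 (chr2:69585980-69586279, minus strand): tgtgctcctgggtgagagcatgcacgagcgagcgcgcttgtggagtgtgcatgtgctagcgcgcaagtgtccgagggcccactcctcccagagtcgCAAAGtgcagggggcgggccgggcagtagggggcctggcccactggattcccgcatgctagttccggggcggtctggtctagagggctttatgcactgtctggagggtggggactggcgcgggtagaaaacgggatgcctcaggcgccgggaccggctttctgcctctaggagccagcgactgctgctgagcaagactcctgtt
CAAAG, letters within the motif of the enterocyte factor HNF4, was found 2 times at the first Dab2 start, 0 times at the second, 2 times for Cubn, 1 time for Amn and 1 time for Lrp2. It was also present in 54.0% of all 32544 such upstream sequences. GATAA, a core of GATA factor motifs, on either strand was found 2 times at the first Dab2 start and at none of the other sequences, against 25.3% of all sequences. TTTATNG, letters of CDX motifs, on either strand was found in none of these sequences, against 10.8% of all.

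The endocytic complex share formed a continuous range, and its upper and lower ends were taken without a gap. In mouse 1 the high cells ran from 0.3536% to 0.971% of UMIs, and the next cell outside was at 0.3535%. The low cells of mouse 1 ended at 0.1592%, with the next cell at 0.1593%. In mouse 2 the high cells ran from 0.3852% to 0.815%, with 0.3850% just outside, and the low cells ended at 0.1805%, with 0.1806% just outside. The ranges show that membership is a cut along a continuum. The median high cell had 33 and 29 UMIs of the 3 genes and the median low cell 4 and 5, with 29 and 52 low cells at 0. Counting error was a large part of the range. The share had a standard deviation (SD) over cells of 0.0822 and 0.0883 percentage points in mouse 1 and mouse 2, against 0.0594 and 0.0627 for counting alone. When each cell was first thinned to 2000 UMIs and ranked again, 40.1% and 43.0% of the high cells were chosen again.

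All 3 genes contributed to the choice. Dab2 was at 1351 and 1155 CPM in the high cells of mouse 1 and mouse 2, and at 382 and 333 CPM in the low cells. For Cubn the levels were 706 and 734 against 182 and 160 CPM. Amn was at 1855 and 2390 CPM in the high cells and at 639 and 853 CPM in the low cells. These differences were fixed by the rule and carry no test. Within the high cells, 350 of 659 in mouse 1 and 381 of 760 in mouse 2 had all 3 genes at or above their library mean. The remaining cells had 1 or 2 of the genes below it, most often Cubn, which was below its library mean in 26.9% and 27.0% of the high cells.

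**Figure D1:**
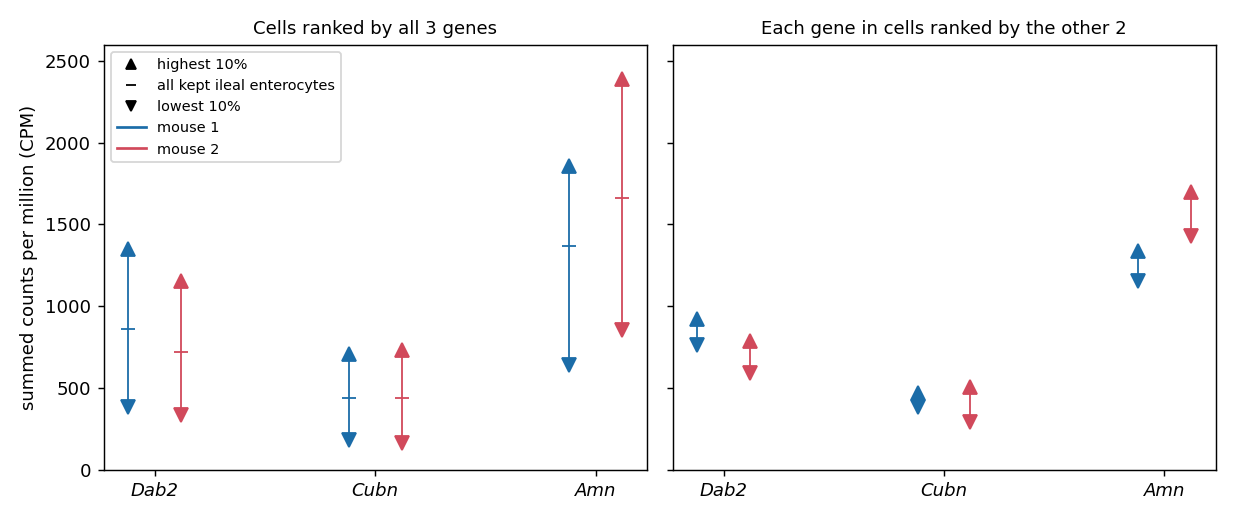
Summed CPM (y axis) of Dab2, Cubn and Amn in the highest 10% (up triangles), all kept cells (dashes) and the lowest 10% (down triangles) of ileal enterocytes of mouse 1 (blue) and mouse 2 (red). In the left panel all 3 genes ranked the cells, and in the right panel each gene is shown in cells ranked by the other 2, where Dab2 of mouse 1 is at 922 and 764 CPM.

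A measure outside the rule is each gene's level in cells ranked by the other 2. The 3 transcripts then differed in the same direction in both mice, by far less than under the full rule. Dab2 was at 922 against 764 CPM in mouse 1 and at 788 against 589 CPM in mouse 2 when Cubn and Amn ranked the cells. Cubn was at 467 against 385 and at 504 against 292 CPM when Dab2 and Amn did. Amn was at 1335 against 1154 and at 1701 against 1429 CPM when Dab2 and Cubn did. The mean log2 differences were 0.34 ± 0.11 for Dab2, 0.53 ± 0.36 for Cubn and 0.23 ± 0.03 for Amn (SD, n = 2 libraries). With 2 libraries no exact test can reach a small p, and none is given. Taking the highest and lowest 5% gave 0.58 for Dab2, 0.88 for Cubn and 0.45 for Amn.

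High and low cells differed in depth. Median UMIs per cell were 7710 in the high and 3887 in the low cells of mouse 1, and 6527.5 and 3936.5 in mouse 2, while all kept cells had medians of 13294 and 11737.5. At an equal 2000 UMIs the mean number of genes per cell was 1329 in the high and 1330 in the low cells of mouse 1, and 1313 and 1330 in mouse 2. The low cells also held RNA of other cell classes. Summed over 8 enteroendocrine markers, the high cells were at 59.8 and 39.3 CPM and the low cells at 458 and 640 CPM. For 6 stem cell markers the sums were 60.1 and 53.7 against 133 and 194 CPM, and for 8 immune markers 3.31 and 4.12 against 23.3 and 56.7 CPM. For 8 goblet markers the sums were 279 and 287 CPM in the high cells, and 417 and 208 CPM in the low cells. Most of the sum in the high cells came from 1 marker, Fcgbp. It was at 185 and 200 CPM in the high cells and at 106 and 46.4 CPM in the low cells. By the edgeR test described below, 5 of 7 tested goblet markers were called lower and 1 higher in the high cells. Of all genes, 20.1% were called lower and 19.9% higher. None of the enteroendocrine markers was at 0 in the low cells of either mouse. Cells with at least 2 markers of another class made up 43.7% and 31.6% of the high and 30.3% and 27.2% of the low cells. They were 43.2% and 34.1% of all kept ileal cells, and all had passed the enterocyte rule. They are called cells of other classes below for these markers only, and their identity was not tested. By the goblet list alone they were 36.3% and 27.4% of the high and 18.7% and 11.3% of the low cells. That list marked 34.5% and 26.3% of all kept ileal cells and 7.27% and 8.28% of all kept jejunal cells. The part of Fcgbp in these percentages was not tested. The counts and lists are also given after ranking within 5 strata of cells by UMIs with cells of other classes left out. That setting is called depth-matched cells below, though it also leaves out cells by their markers. A further setting compares the high cells with the middle 20% of the same library. Both were chosen after the data had been seen. The depth-matched high cells included 45.2% and 47.0% of the high cells of mouse 1 and mouse 2. Their median UMIs were 10060.5 and 9952. The part of depth and of other cells in the differences that remain was not tested.

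To ask which transcripts accompany the endocytic complex, UMIs were summed per library and end of the ranking. The 4 ileal sums were compared by edgeR's quasi-likelihood test with the mouse as a block, over genes other than the 3 that ranked the cells. Of 13053 genes tested, 2596 were called higher (19.9%) and 2623 lower (20.1%) in the high cells at a Benjamini-Hochberg adjusted p under 0.05. The median log2 fold change over all genes was -0.01. In depth-matched cells, 2187 genes were called higher (18.1%) and 2402 lower (19.9%) of 12063. Against the middle 20% of cells, 870 were called higher (6.01%) and 1433 lower (9.89%) of 14487. The shares of all genes in each comparison are the background for the list counts below. The test rests on 2 mice, the high and low cells of a mouse share a library, and the p-values borrow the spread from all genes. Without the mouse as a block, 1068 and 1288 genes were called, and DESeq2 called 1166 and 1090.

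The lysosomal hydrolases are the enzymes that degrade endocytosed proteins, glycans and lipids. Of 55 hydrolase genes on the lists, all were tested, and 52 were called higher (94.5%) and 0 lower in the high cells. The shares of all genes were 19.9% and 20.1%, and the median log2 fold change of the hydrolases was 1.13. By cell, hydrolase transcripts made up a median of 3.77% of UMIs in the high cells of mouse 1 (quartiles 3.05% and 4.26%) and 1.55% in the low cells (1.03% and 2.49%). In mouse 2 the medians were 4.13% and 1.31%. The classes overlapped by cell, since 21.7% and 21.1% of high cells were below the median of all kept cells of their library.

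Among the peptidases, 16 of 17 rose, with a median of 1.08. Ctsl, encoding cathepsin L, was at 2444 and 2933 CPM in the high cells and at 518 and 643 CPM in the low cells, a log2 fold change of 2.35 ± 0.161 (SE). Lgmn, encoding the asparaginyl endopeptidase legumain, was at 6757 and 5709 against 1856 and 1354 CPM (2.10 ± 0.172). Ctsb, encoding cathepsin B, was at 3030 and 3519 against 1351 and 1358 CPM (1.40 ± 0.160). For each of these 3 genes both mice had higher values in high than in low cells. Ctsc, encoding the dipeptidyl peptidase cathepsin C, was the exception, at 22.7 and 35.7 against 31.7 and 37.9 CPM (adjusted p = 0.560 by edgeR). In depth-matched cells 15 of the 17 peptidases were called higher, and the median was 0.89.

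Of 38 glycosidases, lipases and other hydrolases, 36 rose, with a median of 1.14. Naglu, which acts on heparan sulphate, was at 99.2 and 120 CPM in the high cells and at 28.7 and 27.4 CPM in the low cells (2.10 ± 0.152). Man2b2, a lysosomal alpha-mannosidase, was at 426 and 459 against 130 and 131 CPM (1.90 ± 0.142). Hexa, a subunit of beta-hexosaminidase, was at 1148 and 1318 against 426 and 497 CPM (1.55 ± 0.149). Hyal2 and Ppt2 were not called, at log2 fold changes of 0.07 and -0.00. In depth-matched cells 34 of the 38 were called higher, with a median of 0.93.

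**Figure D2:**
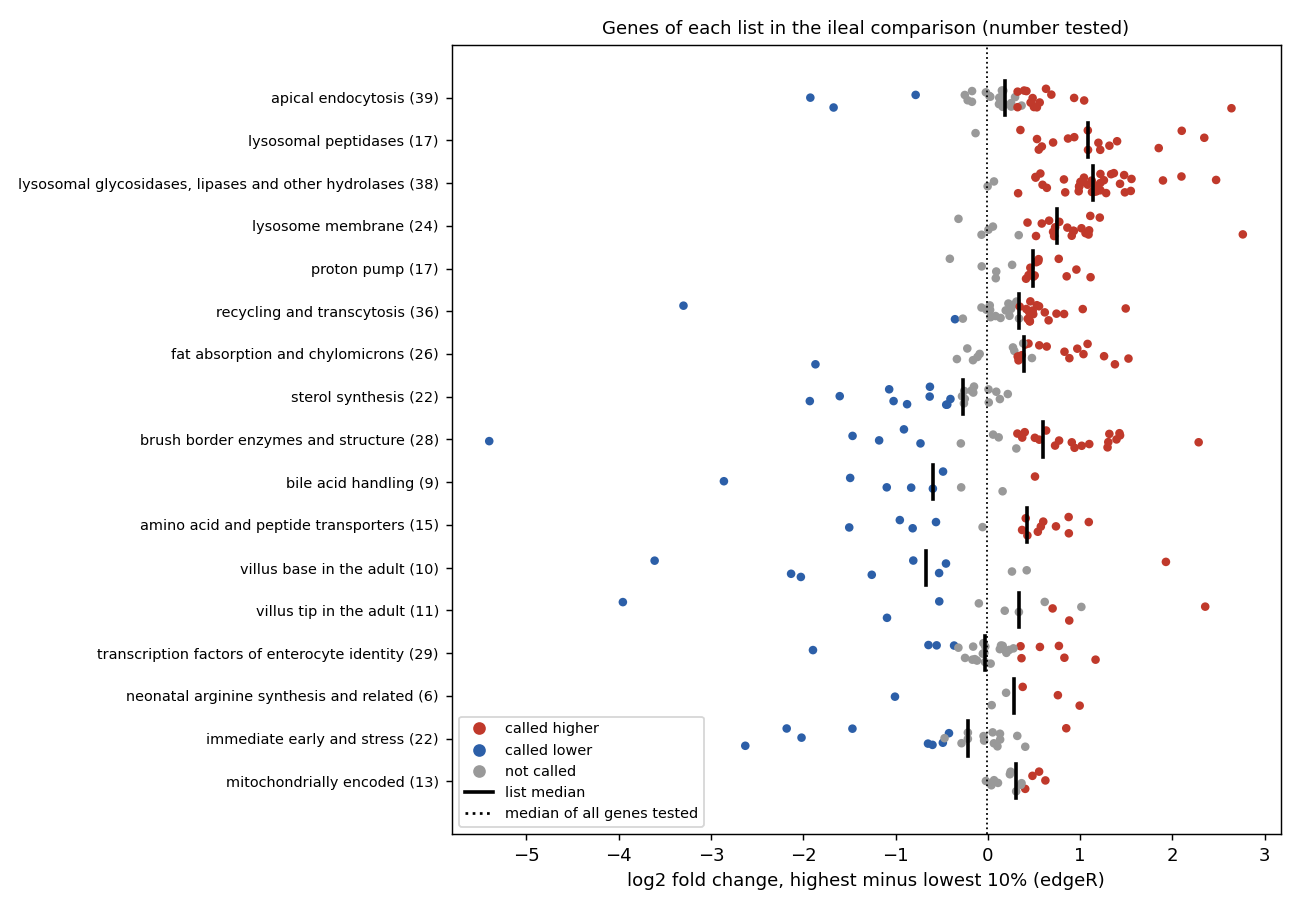
Log2 fold change, highest minus lowest 10% of ileal enterocytes by edgeR (x axis), of each tested gene of 17 lists (y axis, number tested in brackets). Red points were called higher, blue lower and grey not, black bars are list medians, and the dotted line is the median of all genes, -0.01. The lysosomal peptidases and other hydrolases have medians of 1.08 and 1.14. The fat absorption and brush border lists include here the genes that helped to select enterocytes, with medians of 0.39 and 0.60.

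Transcripts of the lysosome's membrane and of its proton pump differed less. Of 24 membrane genes 19 rose (79.2%) and 0 fell, beside 19.9% and 20.1% of all genes, with a median of 0.75. Lamp1, a major glycoprotein of the lysosomal membrane, was at 1024 and 1116 CPM in the high and 610 and 617 CPM in the low cells (0.93 ± 0.147). Slc17a5, the sialic acid exporter, was at 1581 and 1477 against 879 and 735 CPM (1.06 ± 0.151). Cd68, a lysosomal glycoprotein best known from macrophages, was at 39.7 and 21.3 against 6.77 and 3.14 CPM (2.76 ± 0.243). The sum of 8 immune markers was lower in the high cells, as given above, and the cell source of Cd68 was not tested. Of 17 genes of the vacuolar proton pump, 12 rose (70.6%) and 0 fell, with a median of 0.49. In depth-matched cells the medians of both lists were lower, at 0.52 and 0.25.

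Genes of apical endocytosis were mixed. Of 39 tested genes of 40 on the list, 15 rose (38.5%) and 3 fell (7.69%), beside 19.9% and 20.1% of all genes. The median was 0.18. In mouse 1 alone, as log2 (CPM + 1) differences with no test, the median was 0.0030, and in mouse 2 alone it was 0.14. Values of 1 mouse alone are on this scale throughout, where the medians of all genes were -0.13 and -0.12. In depth-matched cells 14 were called higher and 4 lower, beside 18.1% and 19.9% of all genes, with a median of 0.13. Lrp2, encoding megalin, was at 88.4 and 60.4 CPM in the high cells and at 15.99 and 10.3 CPM in the low cells (2.64 ± 0.176), the largest log2 fold change among the abundant genes called higher. Lrp1, encoding a related scavenger receptor, was at 129 and 153 against 74.8 and 74.9 CPM (1.04 ± 0.136). Lrpap1, a chaperone of these receptors, had a smaller log2 fold change of 0.50 that was called. Mamdc4, encoding the endotubin of neonatal apical endosomes, was at 1271 and 1860 CPM in the high and 1536 and 1478 CPM in the low cells, and so had opposite directions in the mice (adjusted p = 0.426 by edgeR). The AP-2 subunits Ap2m1 and Ap2s1, clathrin heavy chain (Cltc) and myosin VI (Myo6) were not called, with log2 fold changes between -0.02 and 0.17. Bin1, Itsn1 and Sh3bp4 fell, at -1.92, -0.78 and -1.67.

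The change was graded along the whole ranking. Cells of each library were divided into deciles by the 3-gene share. The summed level of the 17 peptidases rose at each of 9 steps in both mice, from 8245 to 19571 CPM in mouse 1 and from 7942 to 20566 CPM in mouse 2. The other 38 hydrolases rose at each of 9 steps as well, from 9098 to 17761 and from 8868 to 19290 CPM. Lrp2 rose at 8 of 9 steps in each mouse. The proton pump peaked at 5609 CPM in decile 8 of mouse 1 and at 5615 CPM in decile 7 of mouse 2, and was at 5407 and 5238 CPM in the last. Median UMIs per cell were lowest at the ends of the ranking and highest in the middle.

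**Figure D3:**
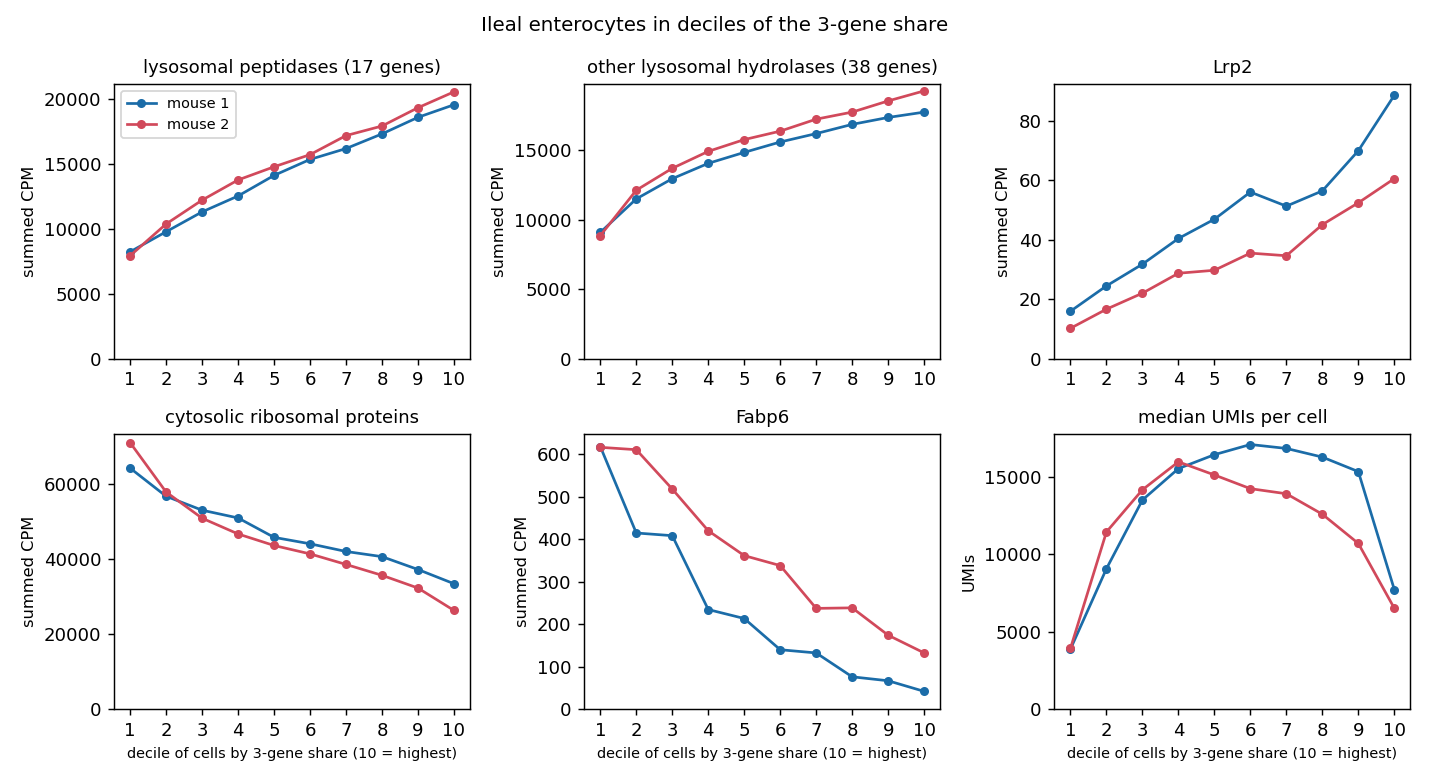
Summed CPM of 3 gene groups, CPM of Lrp2 and Fabp6, and median UMIs per cell (y axes) in deciles of ileal enterocytes by the 3-gene share (x axis, 10 highest) in mouse 1 (blue) and mouse 2 (red). Peptidases rise from 8245 to 19571 CPM in mouse 1 while ribosomal protein transcripts fall from 64272 to 33487 CPM, and UMIs per cell peak in the middle deciles.

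Against the middle 20% of cells, 6.01% of all genes were called higher and 9.89% lower. Of the 55 hydrolases, 21 were called higher there and 1 lower, with a median of 0.24. Lgmn (0.77), Naglu (0.58), Galns (0.56) and Ctsl (0.55) were among them. The proton pump had 0 genes higher and 1 lower, with a median of -0.10. Lrp2 (0.84), Lrp1 (0.75) and Fcgrt (0.56) were called higher here as well.

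Fcgrt encodes the heavy chain of the neonatal Fc receptor, which carries maternal IgG across the epithelium. In the high cells it was at 1465 and 1637 CPM and in the low cells at 570 and 636 CPM (1.49 ± 0.152). Its partner B2m was at 835 and 695 against 607 and 580 CPM (0.49 ± 0.143). Of 36 tested genes of recycling and transcytosis 18 rose (50%) and 2 fell (5.56%), beside 19.9% and 20.1% of all genes. Their median was 0.34. The median was 0.19 in mouse 1 alone and 0.21 in mouse 2 alone, and 0.46 and 0.63 in their jejunum, with no test. In depth-matched cells 12 were called higher and 3 lower, beside 18.1% and 19.9% of all genes. The median there was 0.13. Rab11a, a recycling endosome GTPase, was at 957 and 964 against 586 and 601 CPM (0.83 ± 0.145). Pigr, encoding the polymeric immunoglobulin receptor of basolateral-to-apical transport, fell. It was at 39.9 and 7.21 CPM in the high and at 362 and 110 CPM in the low cells (-3.30 ± 0.156). Against the middle 20% of cells, 2 of the 36 genes were called higher and 6 lower, beside 6.01% and 9.89% of all genes.

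Lipid and brush border genes were mixed. Among 22 genes of fat absorption other than the 4 that helped to select enterocytes, 12 rose (54.5%) and 1 fell (4.55%). Of all genes 19.9% rose and 20.1% fell. The median of the 22 genes was 0.35, which was 0.34 in mouse 1 alone and 0.16 in mouse 2 alone. Apob, the structural protein of chylomicrons, was at 1569 and 1996 against 679 and 820 CPM (1.38 ± 0.153), and Apoc2 was at 1047 and 1076 against 344 and 474 CPM (1.52 ± 0.148). Mttp, which loads lipid onto apolipoprotein B, and the acyltransferase gene Mogat2 were not called, at -0.09 and -0.22. In depth-matched cells, 9 of 21 were called higher and 3 lower, beside 18.1% and 19.9% of all genes. Of 26 brush border genes other than Alpi and Lct, 17 rose (65.4%) and 5 fell (19.2%), beside 19.9% and 20.1% of all genes. Ace, encoding the peptidase angiotensin-converting enzyme, was at 728 and 802 against 168 and 176 CPM (2.29 ± 0.148). Cdhr2 and Espn, which organize microvilli, had log2 fold changes of 1.43 and 1.39. The maltase-glucoamylase gene Mgam and the aminopeptidase N gene Anpep fell, by 1.47 and 1.18 on the log2 scale. Of the genes used to select enterocytes, described with no test, Apoa1 was at 7942 and 7833 against 4087 and 4340 CPM and Lct at 409 and 1032 against 186 and 452 CPM.

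Bile acid genes, which mark the ileum in the adult, were lower. Of 9 genes 6 fell (66.7%) and 1 rose (11.1%), beside 20.1% and 19.9% of all genes, with a median of -0.60. In depth-matched cells 6 of 8 were called lower and 1 higher, with a median of -0.71. By cell, the list made up a median of 0.201% of UMIs in the high and 0.248% in the low cells of mouse 1. In mouse 2 the medians were 0.226% and 0.247%, and 60.4% of high and 51.7% of low cells were below the median of their library. Fabp6, the ileal bile acid binding protein, was at 42.4 and 133 CPM in the high cells and at 618 and 616 CPM in the low cells (-2.86 ± 0.151). It declined over the deciles at 9 of 9 steps in mouse 1 and at 8 of 9 in mouse 2. The cells with the highest 10% of Fabp6 share made up 2.43% and 2.63% of the high cells and 16.8% and 13.8% of the low cells. Fgf15, the hormone released by ileal enterocytes in response to bile acids, was at 94.1 and 52.2 against 215 and 126 CPM (-1.10 ± 0.135). The basolateral exporter subunits Slc51a and Slc51b fell by 0.49 and 0.83. Abcc2, an apical export pump, rose by 0.51. Compared with the middle 20% of cells, 5 of the 9 were called lower and 0 higher.

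Other groups that fell included ribosomal protein and sterol synthesis genes. Of 80 tested genes of cytosolic ribosomal proteins 78 fell and 0 rose, with a median of -1.001. Their summed level was 33485 and 26355 CPM in the high and 64272 and 71060 CPM in the low cells, and it declined at each of 9 steps in both mice. Reads of ribosomal protein genes can be shared with pseudogenes, so single members are uncertain. Against the middle 20% of cells 78 of 80 were called lower, with a median of -0.57. Of 22 sterol synthesis genes 10 fell (45.5%) and 0 rose, beside 20.1% and 19.9% of all genes. Their median was -0.27, which was -0.22 in mouse 1 alone and -0.63 in mouse 2 alone, with no test. Mvd, Sqle and Lss, encoding enzymes of that pathway, fell by 1.60, 1.02 and 1.07. In depth-matched cells 17 of 22 were called lower, beside 19.9% of all genes, with a median of -0.54. Mitochondrially encoded genes depended on the cells compared. Of 13 genes, 4 rose (30.8%) and 0 fell against the low cells, beside 19.9% and 20.1% of all genes. The median was 0.31. Against the middle 20%, 12 rose, beside 6.01% of all genes. In mouse 1 alone the median against the low cells was -0.07. Their summed level was 43818 and 55667 CPM in the high cells, 49582 and 46746 CPM in the low cells and 34513 and 35343 CPM at their lowest decile, so both ends of the ranking were above the middle.

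Genes of the adult villus base and tip were also listed. Of 10 base genes tested of 12, 7 fell (70%) and 1 rose (10%), beside 20.1% and 19.9% of all genes. Their median was -0.67. The median was -0.56 in mouse 1 alone and -1.65 in mouse 2 alone, with no test. In depth-matched cells 6 were called lower and 3 higher, with a median of -0.77. Ccl25, a chemokine that attracts lymphocytes to the small intestine, was at 21.3 and 23.0 CPM in the high and 253 and 346 CPM in the low cells (-3.61 ± 0.154). Lypd8, an antimicrobial surface protein, was at 335 and 180 against 1134 and 1066 CPM (-2.03 ± 0.149). Reg3b and Reg3g, which are similar genes, differed between the mice. Reg3g was at 186 against 33.3 CPM in mouse 1 and at 0.858 against 6.07 CPM in mouse 2, so its log2 fold change of 1.93 rests on mouse 1. Of 11 tip genes 3 rose (27.3%) and 3 fell (27.3%), beside 19.9% and 20.1% of all genes, with a median of 0.34 that was 0.28 in mouse 1 alone and 0.12 in mouse 2 alone. In depth-matched cells 4 of 10 were called higher and 2 lower, beside 18.1% and 19.9% of all genes. Enpp3, an ectonucleotidase and pyrophosphatase of the cell surface, rose, at 521 and 440 against 111 and 94.3 CPM (2.36 ± 0.145). The tip genes Klf4 and Creb3l3 rose by 0.70 and 0.88. Nt5e and Krt20 fell by 1.09 and 3.95.

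Of 29 tested transcription factors of enterocyte identity, 6 rose (20.7%) and 4 fell (13.8%), beside 19.9% and 20.1% of all genes, and the median was -0.03. In depth-matched cells 7 of 28 were called higher and 5 lower, beside 18.1% and 19.9% of all genes. Maf was at 1292 and 1442 CPM in the high cells and at 1026 and 997 CPM in the low cells (0.56 ± 0.150). Prdm1, encoding the repressor Blimp1 of the suckling epithelium, was at 206 and 158 against 195 and 167 CPM (adjusted p = 0.465 by edgeR). Tfeb and Tfe3, regulators of lysosomal genes, had log2 fold changes of -0.03 and 0.14 and were not called. Of 22 immediate early and stress genes 1 rose (4.55%) and 8 fell (36.4%), beside 19.9% and 20.1% of all genes. Their median was -0.22, which was -0.19 in mouse 1 alone and -0.53 in mouse 2 alone.

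Among called genes with at least 50 CPM in the higher class and the same direction in both mice, the 12 with the largest log2 fold changes were Lrp2, Gatm, Pid1, Enpp3, Ctsl, Ace, Bglap3, Ttr, Aff2, Igsf11, Spp2 and Slc38a3. Their log2 fold changes ran from 2.11 to 2.64 and the largest adjusted p by edgeR was 3.1e-32. Gatm, the first enzyme of creatine synthesis, was at 394 and 128 against 65.6 and 27.4 CPM. Ttr, the thyroid hormone and retinol carrier transthyretin, was at 716 and 677 against 127 and 205 CPM. Spp2, a secreted phosphoprotein, was at 421 and 327 against 87.8 and 98.3 CPM. Slc38a3, a glutamine transporter, was at 97.4 and 67.3 against 21.9 and 19.2 CPM. Bglap3 has near-identical relatives, so its level is uncertain. In depth-matched cells all 12 were called higher, and against the middle 20% of cells 11 of 12 were, with Ttr at 0.17 as the exception.

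**Figure D4:**
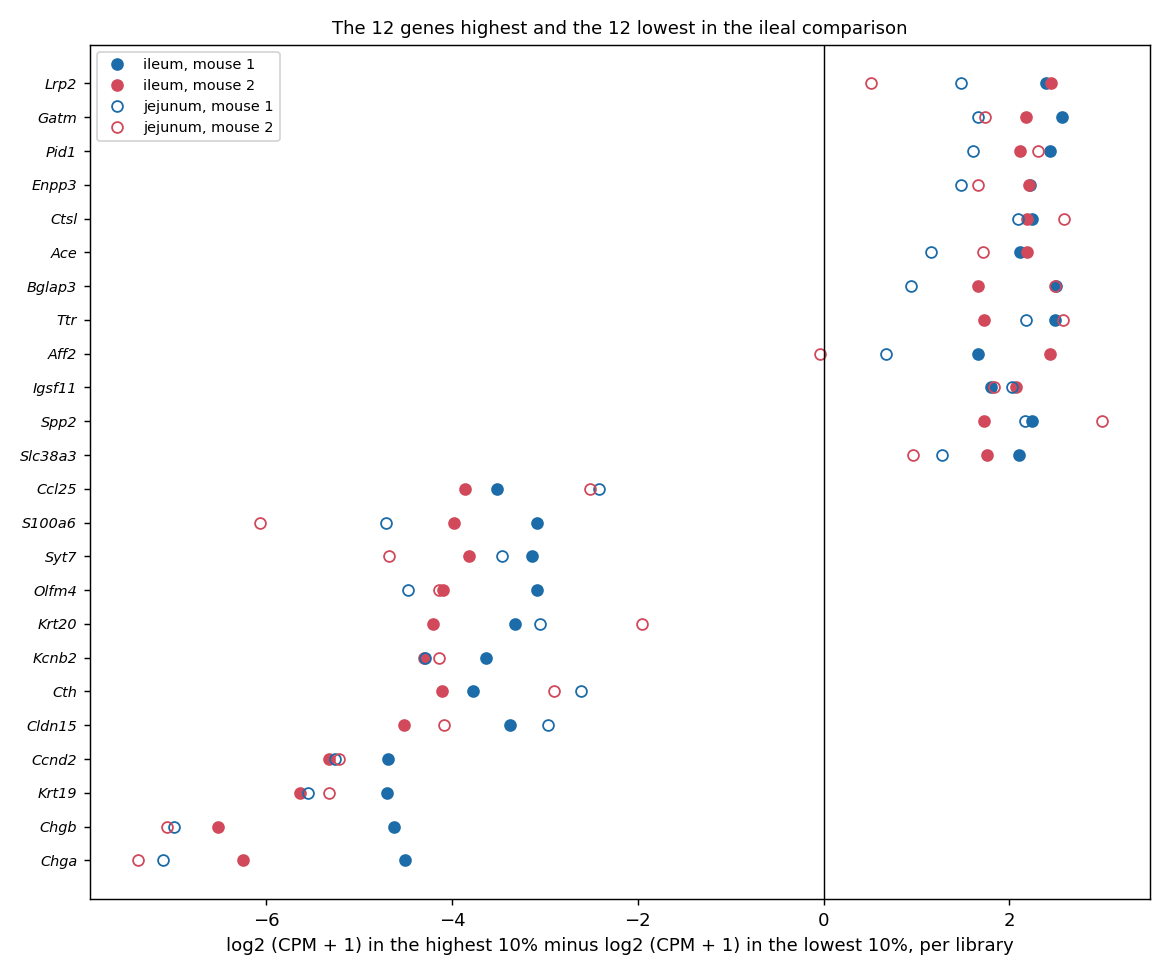
Difference in log2 (CPM + 1) between the highest and the lowest 10% of cells (x axis) for the 24 named genes (y axis), in the ileum (filled) and the jejunum (open) of mouse 1 (blue) and mouse 2 (red). All ileal points of the 12 upper genes lie to the right of 0 and all of the 12 lower genes to the left, while Aff2 is at -0.04 in the jejunum of mouse 2.

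The 12 genes with the largest falls were Chga, Chgb, Krt19, Ccnd2, Cldn15, Cth, Kcnb2, Krt20, Olfm4, Syt7, S100a6 and Ccl25, at log2 fold changes from -5.77 to -3.61. Chga and Chgb encode granins of enteroendocrine secretory granules, and Olfm4 is a stem cell marker. Chga was at 2.68 and 1.03 CPM in the high cells and at 82.4 and 153 CPM in the low cells. Krt19, encoding a simple epithelial keratin, was at 8.67 and 7.55 against 250 and 425 CPM. Chgb was at 207 and 327 CPM in the lowest decile, at 19.8 and 7.65 CPM in the next and at 7.42 and 2.58 CPM in the highest, so most of its difference lay between the lowest decile and the next. Ccl25 fell at each of 9 steps in both mice. Against the middle 20% of cells, 5 of the 12 were called lower. In depth-matched cells, 9 of the 10 that could be tested were called lower, and Chga and Chgb did not pass the count filter there. The exception was Kcnb2, which went from -4.16 to -0.32 (adjusted p = 0.599 by edgeR). Chga, Chgb and Olfm4 are among the markers by which cells were left out there. Their values in that setting were therefore in part fixed by the choice of cells.

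**Figure D5:**
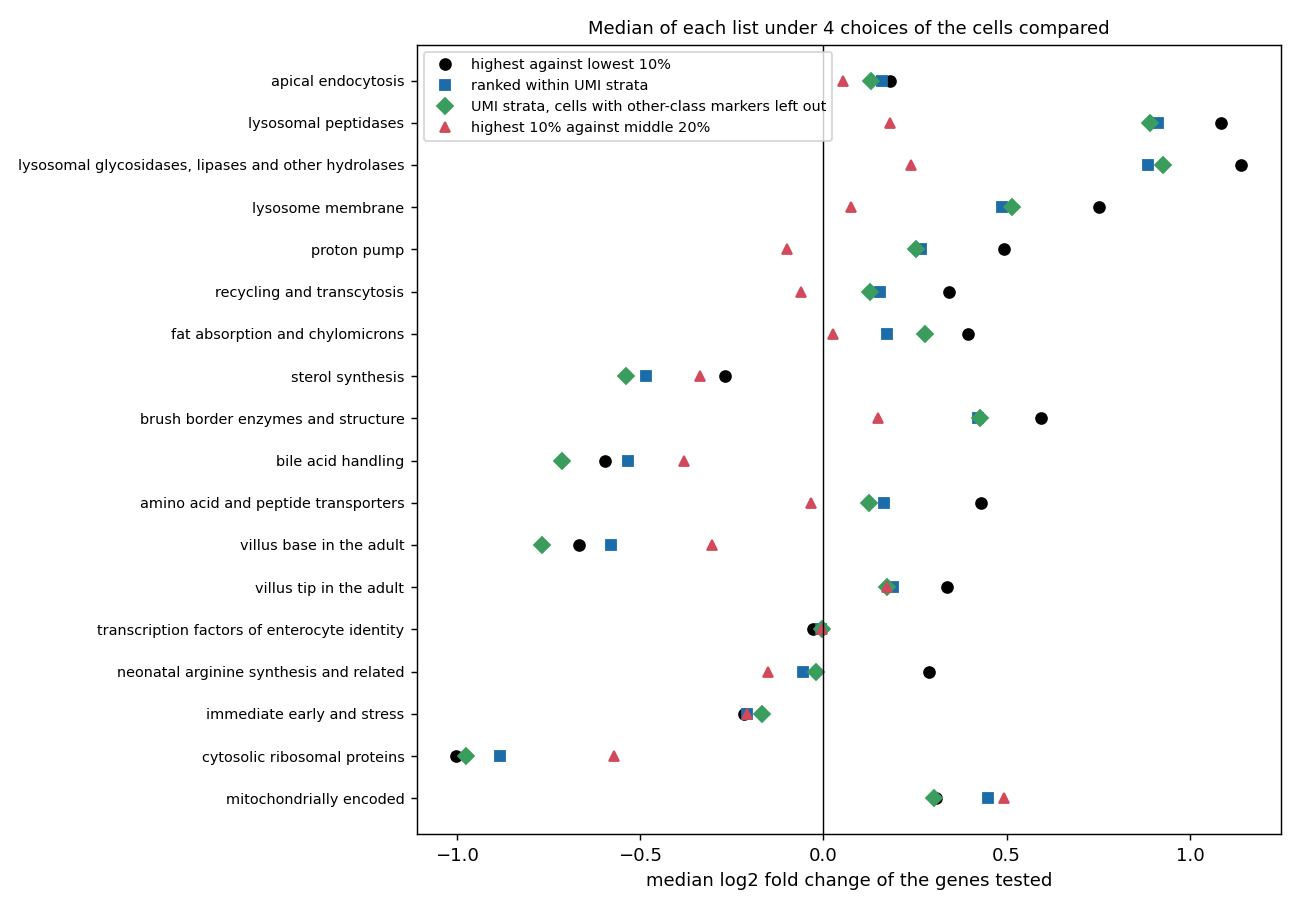
Median log2 fold change of the tested genes of 18 lists (x axis) when the high cells were compared with the lowest 10% (black circles), within strata of cells by UMIs (blue squares), within these strata without cells of other classes (green diamonds) and with the middle 20% (red triangles). The 38 other lysosomal hydrolases have medians of 1.14, 0.89, 0.93 and 0.24, and the proton pump goes from 0.49 to -0.10. The fat absorption and brush border lists include here the genes that helped to select enterocytes.

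The same ranking was applied to the jejunum of the same mice, where 1275 enterocytes formed the high group, to ask which differences themselves differed between the regions. With 8 sums in 1 fit, blocked by library, the high-minus-low difference of 924 of 13537 genes differed between the regions (6.83%). Of these, 448 were more positive and 476 more negative in the ileum. The fit let this difference vary by region but not by mouse, so the pairing of regions within a mouse was not used. The jejunal low cells had median mitochondrial shares of 9.79% and 13.04%, against 4.67% and 7.19% in the jejunal high cells, while the ileal low cells had 4.92% and 5.13% and the ileal high cells 4.23% and 5.38%. The part of this difference in the comparison of regions was not tested. For the hydrolases 2 of 55 had a called difference between regions, and their median difference was -0.06. Ctsl was at 3212 and 2699 CPM in the jejunal high cells and at 750 and 447 CPM in the low cells. The bile acid list had 5 of 9 called, all more negative in the ileum. For example, Slc51a was at 1164 and 1019 CPM in the high and 554 and 410 CPM in the low cells of the jejunum, against the opposite order in the ileum. Of 22 fat absorption genes 10 were called, 8 of them more negative in the ileum. Of 36 recycling and transcytosis genes 8 were called, 0 of them more positive in the ileum, and the median difference was -0.35. Of 24 lysosome membrane genes 5 were called, 1 of them more positive in the ileum. Lrp2 itself was at 10.7 and 1.72 against 3.18 and 0.907 CPM in the jejunum, and its interaction did not pass (0.86 log2 units, adjusted p = 0.352 by edgeR). Cd68 was higher in the high cells of the ileum and at 5.70 and 3.19 against 5.72 and 3.17 CPM in the jejunum, an interaction of 2.60 log2 units.

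Afp, encoding alpha-fetoprotein, had the largest positive difference between regions. It was at 250 and 225 CPM in the ileal high and 74.5 and 70.1 CPM in the ileal low cells, and at 6.41 and 3.69 against 40.1 and 62.1 CPM in the jejunum. With cells of other classes left out the interaction of Afp was -0.54, and with the middle 20% in place of the lowest 10% it was -0.14. In depth-matched cells it was 0.12 (adjusted p = 0.967 by edgeR), so the call for Afp was lost in each of these 3 settings. Leaving out cells of other classes kept 56.3% and 65.9% of the ileal high cells. The other 5 named genes that were more positive in the ileum were Meg3, Fcgbp, Nts, B4galt1 and Hepacam2. Of these, Nts and Hepacam2 were lower in the high cells of both regions. Fcgbp, Nts and Hepacam2 are transcripts of secretory cells, and Fcgbp is among the markers by which cells of other classes were left out. Serpina1a, encoding an alpha-1-antitrypsin with close paralogs, had the largest negative difference, at 0.946 and 2.23 against 17.6 and 21.3 CPM in the ileum and at 274 and 399 against 179 and 171 CPM in the jejunum. The low cells of the jejunum held more RNA of other classes than those of the ileum, with 8 enteroendocrine markers at 1768 and 1984 CPM and 8 goblet markers at 853 and 696 CPM. When cells of other classes were left out and depth was matched, 264 genes differed between the regions, and 5 of the 11 named genes that could be tested were called. Without the library as a block 3 genes did.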

How the data were processed

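UMI counts per gene and cell were deposited for 4 PIPseq 3′ libraries (jejunum and ileum of 2 WT mice at P6). The authors made these counts with PIPseeker from called cells, and the submitters' processing notes name GRCm39. The annotation and the version of PIPseeker are not given in the sources used here. No gene or mitochondrial filter had been applied to the deposited counts.

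Cells were filtered and ranked with Python 3.11.15 as stated in the results. A doublet caller (Scrublet in scanpy 1.11.5, expected rate 6%) marked 2 and 1 ileal cells, so it did not work here and no cell was removed on it. UMIs were summed per library and class and tested with edgeR 4.0.16 (filterByExpr, TMM, quasi-likelihood F-test, Benjamini-Hochberg adjustment) with the library as a block, since the high and low cells of a pair come from the same library and mouse. DESeq2 1.42.0 was an alternative. CPM scale a gene's UMIs to the summed UMIs of its class. Per-library log2 differences in the plots use CPM + 1. P-values measure how far the high-minus-low difference varied between the libraries of 2 mice, each sampled once per region. The block takes out differences in level between libraries, and the spread is borrowed from all genes. The code was tested on simulated data.

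Named genes were the 12 with the largest rises and the 12 with the largest falls among called genes that averaged 50 CPM or more in whichever class was higher and had the same direction in both mice, other than gene-model names, ribosomal protein and mitochondrial genes, plus 6 in each direction for the region difference. List members may be named besides. The cells and gene lists were chosen with earlier results of these data known. Alternatives covered the share of cells taken, filters, thinning, ranking by 1 gene or within UMI strata, the block, DESeq2 and leaving out each library. Leaving out cells of other classes, the same within UMI strata, and the middle 20% as reference were chosen after seeing the data. A few members of the gene lists are not reported by name here.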

Additional observations from a re-analysis of the deposited data

Results flagged for a closer look

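Each value in this part is the high-minus-low log2 difference of the ileum minus that of the jejunum, from edgeR's test of the region by class term, and was listed because that term passed at an adjusted p under 0.05. Of the 12 genes named for this term, those more positive in the ileum were Afp (4.97), Meg3 (4.60), Fcgbp (4.02), Nts (3.87), B4galt1 (3.83) and Hepacam2 (3.32). Those more negative were Serpina1a (-4.56), Cyp2d26 (-3.05), Zbp1 (-2.50), Nr2e3 (-2.47), Pdzk1ip1 (-2.13) and Sult6b2 (-2.01). Nts, Hepacam2, Cyp2d26 and Nr2e3 were lower in the high cells of both regions. In the ileum Cyp2d26 was low, at 0.315 and 0.515 against 3.25 and 8.79 CPM. Zbp1 was at 4.26 and 4.63 against 10.0 and 4.18 CPM there, with opposite directions in the mice. Pdzk1ip1 was higher in the high cells of both regions, at 802 and 754 against 507 and 500 CPM in the ileum and at 776 and 519 against 131 and 69.8 CPM in the jejunum.

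Of the 24 genes named in the ileal comparison, 7 had a called term. It was positive for S100a6 (2.41), Chga (1.97), Aff2 (1.59) and Chgb (1.56), and negative for Krt20 (-1.66), Cth (-1.44) and Ccl25 (-1.30). Chga and Chgb were lower in the high cells of both regions.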

How the results depend on the processing

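Against 2596 genes higher and 2623 lower, DESeq2 called 1166 and 1090, the fit with no replicate block 1068 and 1288, ranking by Amn alone 1276 and 1356, the middle 20% as reference 870 and 1433, thinning after ranking 1457 and 1676, and thinning before ranking 1016 and 1187. Requiring 5 of 6 enterocyte markers gave 1685 higher, and leaving out cells of other classes 1665. The count of 924 genes that differed between regions became 290 with DESeq2, 3 with no replicate block, 532 with 5% at each end, 153 against the middle 20%, 177 and 171 with thinning after and before ranking, 152 without cells of other classes and 264 with UMI strata added. It ranged from 649 to 1190 over fits that left out 1 library. The high-over-low ratio of median UMIs went from 1.82 to 0.985 within UMI strata. The left-out difference of Dab2 became 0.58 with 5% at each end, and that of Amn 0.45 with 5%, 0.13 with 20% and 0.16 within UMI strata.

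With the middle 20% as reference, medians turned for the proton pump (-0.098), recycling (-0.061), amino acid transporters (-0.035) and arginine synthesis (-0.15), as did Chgb (0.19), Krt20 (0.35) and Olfm4 (0.28). The arginine list, of 6 tested genes, was also at -0.010 with 20% at each end, -0.023 with 5 of 6 markers, -0.063 by Dab2 alone, -0.056 within UMI strata and -0.021 in depth-matched cells. The villus tip list was at -0.028 with 5% at each end, -0.051 by Cubn alone and -0.0089 with thinning before ranking. The mitochondrially encoded list was at -0.066 by Amn alone, -0.074 without mouse 2 and 0.32 without mouse 1. The region term turned for Afp (-0.14 against the middle 20%, -0.54 without cells of other classes), Nts (-0.62 and, in depth-matched cells, -0.055) and B4galt1 (-0.096 against the middle 20%). The causes were not tested. Of 501 values for the 24 named genes, 488 kept direction and, where a test was run, the call. Of 201 for the region term 159 did. With 1 mouse left out the ileal comparison has values but no test. Named genes had to have the same direction in both mice, so the direction of those values was fixed beforehand. Detection is limited by the few UMIs of Dab2, Cubn and Amn in a cell.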
